A study of Mus musculus with 2 samples.

Results

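The genes described here are 40 genes of the cells that form brain blood vessels, and they were taken by symbol from the deposited table of 37303 genes. Of these, 31 are genes of endothelial cells and 9 are genes of mural cells, with 6 pericyte genes and 3 smooth muscle genes. All 40 symbols were found, each in 1 row, and 39 of them averaged 1 FPKM or more over both libraries (fragments mapped to the gene, scaled to transcript length and to all mapped fragments). The symbols were chosen as known vascular genes, with earlier results of these data known.

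The series compares *Rbfox3*-/- (KO) with wild-type (WT) mice, with 1 RNA library per genotype, and asks what the loss of RBFOX3, a neuronal splicing regulator also known as NeuN, changes in the brain. By the methods of the study, RNA came from the right cortical hemisphere of male mice at P56. The KO mice carried the *tm1a(EUCOMM)Hmgu* allele of *Rbfox3* on both chromosomes in a C57BL/6N background, and the WT mice were littermates from matings of heterozygous parents. The allele is germline and not limited to neurons, so the vascular cells carry it too. The paper describes expression of *Rbfox3* as limited to neurons, however. The labels give B6 as the strain and cerebral cortex as the source of both libraries, although the extraction note attached to them allows cortex or hippocampus. How many mice went into a library is not stated in the sources used here.

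*Rbfox3* was at 6.46 FPKM in the KO library and 57.3 FPKM in the WT library, 8.87-fold lower in KO. *Tbr1*, a transcription factor of cortical excitatory neurons, was at 72.3 FPKM in KO and 65.5 FPKM in WT. Because each genotype has 1 library, no difference below has a replicate check, no p-value can be given, and every count describes these libraries alone.

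Endothelial cells line the vessels, and in the brain they form the blood-brain barrier. Their tight junctions close the gaps between cells, and transporters in their membranes bring nutrients in and pump foreign molecules out. Pericytes are wrapped around capillaries, signal to the endothelium and help to maintain the barrier, and smooth muscle cells surround arteries and arterioles and set their width. RNA was taken from whole tissue, so fewer vascular cells and less RNA per vascular cell cannot be told apart.

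The sequences just upstream of 2 members are shown because these members lay at the ends of the range described below, *Cldn5* with the lowest ratio of KO to WT and *Rgs5* with the highest. They are the 250 bases before the start of the gene in RefSeq, build GRCm38.p6, for *Cldn5* at chr16:18776597-18776846 and for *Rgs5* at chr1:169655251-169655500, both on the plus strand, and capitals mark CCAAT on either strand (ATTGG as written).

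Cldn5: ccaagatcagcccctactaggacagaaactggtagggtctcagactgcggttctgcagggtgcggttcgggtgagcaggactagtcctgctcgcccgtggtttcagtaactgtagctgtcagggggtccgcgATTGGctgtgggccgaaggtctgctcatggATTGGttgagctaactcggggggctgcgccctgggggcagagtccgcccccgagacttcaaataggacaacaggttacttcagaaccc

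Rgs5: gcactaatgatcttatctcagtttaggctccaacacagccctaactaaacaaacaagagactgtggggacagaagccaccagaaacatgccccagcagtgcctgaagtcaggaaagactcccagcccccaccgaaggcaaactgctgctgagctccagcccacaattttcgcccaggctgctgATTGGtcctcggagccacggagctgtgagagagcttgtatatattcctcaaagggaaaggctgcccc

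The *Cldn5* window held CCAAT 2 times and the *Rgs5* window 1 time, and 33.8% of 32851 RefSeq windows of the same length held it at least once. ACAAT, the core of many SOX sites, was searched on both strands and was found 0 times in the *Cldn5* window and 1 time in the *Rgs5* window, against 27.7% of all windows. GGAAG, which is longer than the GGAA core of ETS sites, was found on neither strand of either window, against 64.1% of all windows. The shorter GGAA does occur in the *Rgs5* window as printed, and it was not counted over all windows. Windows were given for 26 of the 40 genes, and the first window held CCAAT in 7, ACAAT in 6 and GGAAG in 16 of them. A match or its absence in such a window describes these letters alone.

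FPKM is scaled to transcript length, so levels can be set side by side between genes, but only roughly. The ratios of KO to WT still moved with length and GC content, as described below. The levels spanned from below 1 FPKM to about 50 FPKM. *Rgs5*, a regulator of G-protein signalling that marks pericytes, was the most abundant member at 50.3 FPKM in KO and 44.9 FPKM in WT. It was followed by the endothelial genes *Itm2a* (38.8 FPKM in KO, 35.8 FPKM in WT) and *Ly6c1* (32.2 FPKM in KO, 35.4 FPKM in WT), which were nearly equal in WT. *Nos3*, which encodes endothelial nitric oxide synthase, was lowest at 0.784 FPKM in KO and 1.02 FPKM in WT, and it is the member that did not reach a mean of 1 FPKM. In all, 12 members were at 10 FPKM or more in both libraries. The defining endothelial genes *Cldn5*, *Pecam1* and *Cdh5*, the pericyte genes *Pdgfrb* and *Rgs5* and the smooth muscle genes *Acta2* and *Tagln* were all detected in both libraries.

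**Figure D1:**
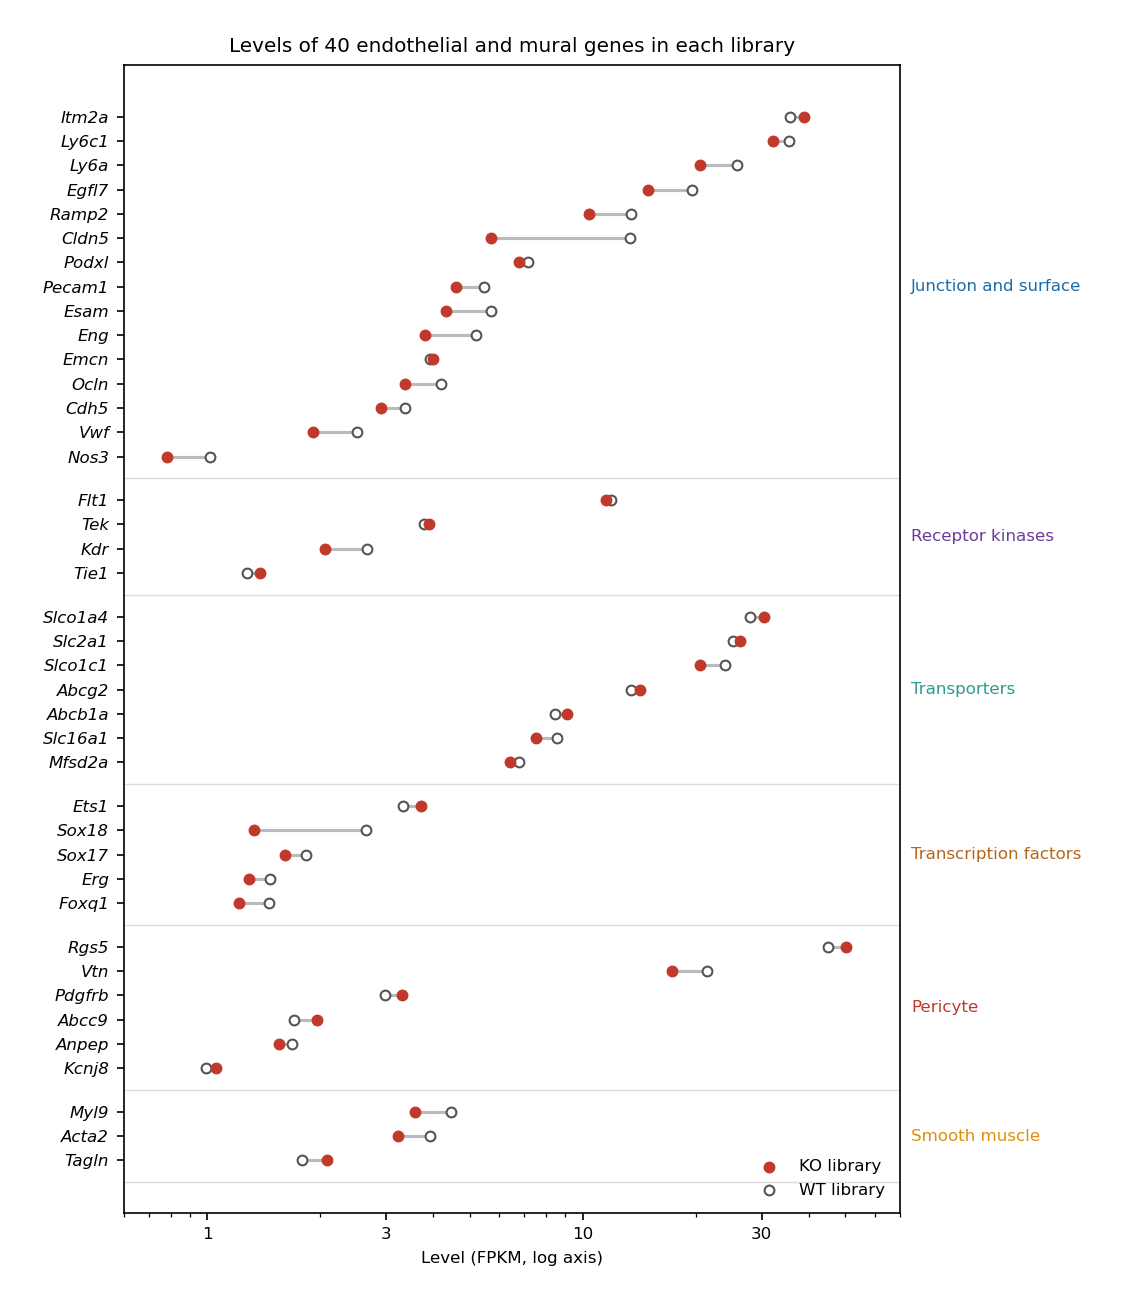
Level of each of the 40 genes in FPKM on a log axis, with the KO library as filled red points and the WT library as open points, grouped by role from top to bottom. The points of most genes lie close together, whereas *Cldn5* (5.70 FPKM in KO, 13.4 FPKM in WT) and *Sox18* (1.34 FPKM in KO, 2.65 FPKM in WT) are set apart.

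Most vascular genes were at similar levels in KO and WT cortex, and *Cldn5*, the main tight junction gene of brain endothelium, was the exception. The log2 ratio of KO over WT was taken with 1 FPKM added to each value, and this shrinks the ratios of low genes. A log2 ratio of at least 1 in size, a 2-fold difference, was reached by 1 of the 39 members in the downward direction and by 0 in the upward direction. Over all 13042 genes that averaged 1 FPKM or more, 0.583% were at least 2-fold lower and 0.491% at least 2-fold higher in KO. The log2 ratios of the members ranged from -1.10 to 0.16 with a median of -0.12, and the median over all genes was 0.02.

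Of the 39 members, 25 had a ratio below 0 and 14 above it, so that 64.1% lay below 0 against 45.6% of all genes. As a measure of how wide ratios are at a given level, the central 95% of log2 ratios was taken over all genes in 4 ranges of mean FPKM. It ran from -0.61 to 0.53 at 1 to 3 FPKM, from -0.45 to 0.50 at 3 to 10 FPKM, from -0.37 to 0.44 at 10 to 30 FPKM, and from -0.38 to 0.37 above 30 FPKM. *Cldn5* and *Sox18* lay below these limits and no member lay above them. This is 2 of 39 members, whereas 5.03% of all genes lay outside the limits and 2.51% below them, so the number of members outside is near the share over all genes.

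**Figure D2:**
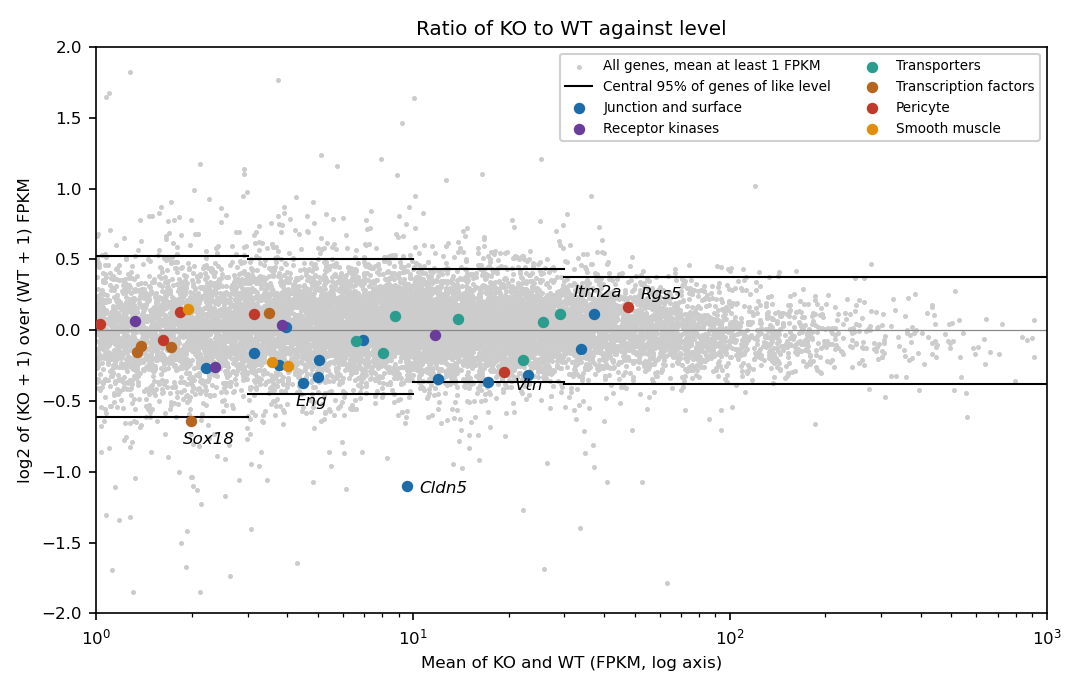
Log2 ratio of KO over WT, with 1 FPKM added to both, against the mean of both libraries in FPKM on a log axis, for 13042 genes in grey and 39 vascular genes in the colours of their role (114 genes lie outside the axes). Black lines mark the central 95% of genes in each range of level; *Cldn5* at -1.10 and *Sox18* at -0.64 lie below them, and *Egfl7* lies just inside.

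The junction and surface proteins of endothelial cells held the largest difference. In this group 12 of the 14 members measured were lower in KO (85.7%), against 45.6% of all genes. *Cldn5* encodes claudin-5, which seals the tight junctions between brain endothelial cells, and was at 5.70 FPKM in KO and 13.4 FPKM in WT, 2.35-fold lower in KO. Its log2 ratio was -1.10, rank 66 from the lowest among 13042 genes. *Cldn5* (ENSMUSG00000041378) has 1 annotated exon on chromosome 16 of GRCm38 from 18776847 to 18778262, shares it with no other annotated gene, and is listed with a single isoform.

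The other junction genes differed much less. *Ocln*, which encodes the tight junction protein occludin, was at 3.38 FPKM in KO and 4.19 FPKM in WT. *Esam*, an adhesion molecule at endothelial contacts, was at 4.33 FPKM in KO and 5.69 FPKM in WT, and *Cdh5*, the cadherin of endothelial adherens junctions, was at 2.90 FPKM in KO and 3.37 FPKM in WT. *Pecam1*, an adhesion molecule that marks endothelium in all tissues, was at 4.59 FPKM in KO and 5.47 FPKM in WT. Each of these 4 genes was lower in KO by 1.16-fold to 1.32-fold, and all lay within the range of genes of like level.

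Among the surface and secreted proteins, *Eng*, a co-receptor for TGF-beta ligands, had the lowest ratio after *Cldn5* (-0.37), with 3.80 FPKM in KO and 5.21 FPKM in WT. *Egfl7*, which encodes a protein secreted by endothelial cells, was at 14.9 FPKM in KO and 19.5 FPKM in WT, and *Ramp2*, the partner of the adrenomedullin receptor, was at 10.4 FPKM in KO and 13.5 FPKM in WT. *Egfl7* and *Ramp2* each share exon bases with another gene on the same strand, to which some of their reads could belong. *Eng* shares exon bases with *Fpgs* on the other strand, and whether counting used strand is not stated. *Ly6a*, a surface antigen, was at 20.5 FPKM in KO and 25.7 FPKM in WT. These 4 genes were 1.26-fold to 1.37-fold lower in KO. *Vwf*, the clotting factor stored in endothelial cells, was at 1.91 FPKM in KO and 2.51 FPKM in WT.

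*Ly6c1* (-0.13) and *Podxl* (-0.07), which encodes a sialomucin of the luminal surface, were nearer to 0. *Ly6c1* has a near-identical neighbour, *Ly6c2*, which was at 0.0517 FPKM in KO and 0.234 FPKM in WT, and reads could be divided between them. *Emcn*, another sialomucin of endothelium, was at 4.01 FPKM in KO and 3.93 FPKM in WT. *Itm2a*, a membrane protein enriched in brain endothelium, had the highest ratio of the group (0.11). The median log2 ratio of the group was -0.26, or -0.25 without *Cldn5*, and the summed level of its 15 genes was 155.0 FPKM in KO and 181.9 FPKM in WT.

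The endothelial transcription factors were low in both libraries, and *Sox18* stood apart from the others. *Sox18* encodes a SOX factor of developing blood and lymphatic vessels. It was at 1.34 FPKM in KO and 2.65 FPKM in WT, 1.98-fold lower in KO, with a log2 ratio of -0.64 against a lower limit of -0.61 for genes of like level. With 0.1 FPKM added in place of 1, *Sox18* lay inside the corresponding limits. *Sox18* (ENSMUSG00000046470) lies on chromosome 2 from 181669836 to 181671640 on the minus strand.

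*Sox17*, the closely related SOX factor of arterial endothelium, was at 1.61 FPKM in KO and 1.83 FPKM in WT. *Foxq1*, a forkhead factor found in brain endothelium, was at 1.21 FPKM in KO and 1.46 FPKM in WT, and *Erg*, an ETS factor that maintains endothelial identity, was at 1.29 FPKM in KO and 1.47 FPKM in WT. *Ets1*, the other ETS factor, was the one gene of this group above 0, at 3.71 FPKM in KO and 3.33 FPKM in WT. The median of the 5 genes was -0.12.

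The receptor tyrosine kinases through which VEGF and angiopoietins act on the endothelium did not share a direction. *Kdr*, the main signalling receptor for VEGF (VEGFR2), was lowest, with 2.06 FPKM in KO and 2.67 FPKM in WT (log2 ratio -0.26). *Flt1*, which encodes VEGFR1 and limits the VEGF that reaches VEGFR2, was at 11.6 FPKM in KO and 11.9 FPKM in WT. *Tek*, the angiopoietin receptor TIE2, was at 3.91 FPKM in KO and 3.79 FPKM in WT, and its partner *Tie1* was at 1.38 FPKM in KO and 1.28 FPKM in WT. Thus 2 of the 4 receptors were above 0 and 2 below, all within the limits of genes of like level.

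The barrier transporters lay on both sides of 0, with 4 of 7 above it. *Slc2a1*, the glucose transporter GLUT1 of the barrier, was at 26.2 FPKM in KO and 25.2 FPKM in WT. *Slco1a4*, an organic anion transporter, was at 30.4 FPKM in KO and 28.0 FPKM in WT, and the efflux pumps *Abcb1a* (P-glycoprotein) and *Abcg2* were at 9.11 and 14.2 FPKM in KO and 8.45 and 13.4 FPKM in WT. These 4 genes had log2 ratios between 0.06 and 0.11. *Abcb1b*, the close copy of *Abcb1a*, was at 0.817 FPKM in KO and 0.578 FPKM in WT.

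*Slco1c1*, the thyroid hormone transporter, had the lowest ratio of the transporters (-0.21), with 20.5 FPKM in KO and 23.9 FPKM in WT. *Slc16a1*, the monocarboxylate transporter MCT1, was at 7.53 FPKM in KO and 8.56 FPKM in WT, and *Mfsd2a*, which carries lipids with docosahexaenoic acid and limits transcytosis, was at 6.39 FPKM in KO and 6.78 FPKM in WT. Over the 7 transporters the median log2 ratio was 0.058, and the summed level was 114.4 FPKM in KO and 114.3 FPKM in WT. The medians of the transporters and of the junction group come from the same pair of libraries, and their difference was not tested.

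The pericyte genes were also close between the genotypes. *Pdgfrb*, the receptor through which endothelial PDGF-B recruits pericytes, was at 3.30 FPKM in KO and 2.98 FPKM in WT. *Rgs5* had the highest log2 ratio of all members, 0.16, and *Abcc9* and *Kcnj8*, the regulatory and pore subunits of the vascular ATP-sensitive potassium channel, were at 1.96 and 1.06 FPKM in KO and 1.70 and 0.996 FPKM in WT. *Anpep*, the aminopeptidase CD13 of pericytes, was at 1.55 FPKM in KO and 1.68 FPKM in WT. *Vtn*, which encodes the extracellular protein vitronectin, was the lowest of the 6 (-0.29), with 17.3 FPKM in KO and 21.4 FPKM in WT. Thus 4 of the 6 genes were above 0, with a median of 0.08, and the summed level was 75.5 FPKM in KO and 73.7 FPKM in WT.

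The 3 smooth muscle genes encode contractile proteins and did not share a direction. *Acta2*, smooth muscle actin, was at 3.23 FPKM in KO and 3.93 FPKM in WT, and *Myl9*, a regulatory light chain of myosin, was at 3.59 FPKM in KO and 4.46 FPKM in WT. *Tagln*, the actin-binding protein transgelin, was at 2.09 FPKM in KO and 1.79 FPKM in WT, and shares exon bases with *Pcsk7* on the other strand. *Acta1* and *Actg2*, which encode nearly the same protein as *Acta2*, were at 2.77 and 0.0669 FPKM in KO and 2.45 and 0.0383 FPKM in WT. The median log2 ratio of the smooth muscle genes was -0.22, and all 3 genes lay within the limits of genes of like level. Over all 9 mural genes the median was 0.04 with 5 genes above 0, and over the 30 measured endothelial genes it was -0.14 with 9 above 0. Thus 44.4% of the mural and 70% of the measured endothelial genes lay below 0, against 45.6% of all genes. The difference between these groups was not tested.

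Ratios in these libraries moved with transcript length, and several of the lower members have short transcripts. Over all 12872 genes with an annotated transcript, the median log2 ratio was -0.08 in the shortest of 5 equal groups (up to 1755 bases) and 0.11 in the longest (from 5206 bases). It was -0.02 in the group of highest GC content and 0.05 in that of lowest. The longest coding transcript has 1416 bases and 60.5% GC for *Cldn5*, and 1620 bases and 60.9% GC for *Sox18*. When each ratio was centred on genes of like length and GC content, *Cldn5* was at -1.03 and *Sox18* at -0.57, and the junction group had 12 of 14 genes below 0 with a median of -0.26. The transporters then had a median of -0.057, with 4 of 7 genes below 0, and the receptor kinases a median of -0.077, with 3 of 4 below 0. Of the 30 measured endothelial genes 23 were then below 0 (median -0.17), and of the 9 mural genes 4 were (median 0.0098). In the shortest group 8 of the 10 members measured lay below 0, all but *Itm2a* and *Tagln*, against 65.5% of all genes of that group. In the longest group 4 of 7 members lay below 0 (*Vwf*, *Kdr*, *Podxl* and *Flt1*) and 3 above it (*Abcg2*, *Pdgfrb* and *Abcc9*), against 24.2% of all genes below 0. The part of transcript length in the ratios of the members was not tested further.

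**Figure D3:**
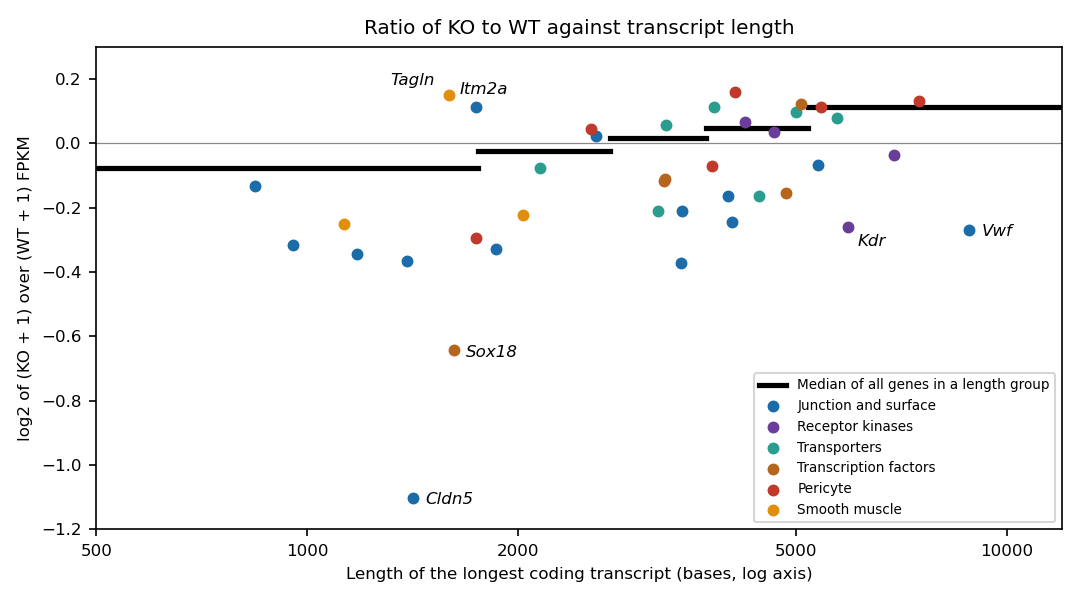
Log2 ratio of KO over WT against the length of the longest coding transcript in bases on a log axis, for the 39 measured vascular genes in the colours of their role. Black bars are medians of all genes in 5 groups of length, from -0.08 for the shortest to 0.11 for the longest; *Cldn5* (1416 bases) and *Sox18* (1620 bases) lie far below the bar of their length.

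Ligands, receptors and further genes of the vessel wall were taken from 5 other lists, in which 72 of 91 genes averaged 1 FPKM or more. None of the 72 reached a 2-fold difference, and 3 of them, *Nrp2*, *Tfrc* and *Cd34*, lay outside the central 95% of genes of like level, against 5.03% of all genes. In all, 41 of the 72 had a ratio below 0 (56.9%), against 45.6% of all genes.

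For 8 genes of VEGF and angiopoietin signalling the median log2 ratio was -0.04. *Nrp2*, a co-receptor for VEGF and semaphorins, was lowest with 2.83 FPKM in KO and 4.55 FPKM in WT, followed by the TIE2 ligand *Angpt1* with 2.20 FPKM in KO and 3.12 FPKM in WT. *Nrp1* (0.17) and *Vegfb* (0.07) were highest. Of 14 genes of the Wnt and norrin signalling that induces and keeps the barrier, 7 were above 0, with a median of -0.0048. *Fzd4*, the receptor for norrin, was highest with 2.72 FPKM in KO and 1.71 FPKM in WT, ahead of the co-receptor *Lrp6* (0.28), whereas *Lef1* (-0.22) and *Axin2* (-0.14), a transcription factor and a target gene of the pathway, were lowest.

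For 9 genes of PDGF-B, TGF-beta and Notch signalling the median was -0.10. *Pdgfb*, the ligand for PDGFRB, was lowest with 4.75 FPKM in KO and 6.39 FPKM in WT, and *Acvrl1* (-0.29), the endothelial TGF-beta family receptor ALK1, came next. *Notch3* (0.21), the Notch receptor of mural cells, and *Jag1* (0.06), a Notch ligand, were highest.

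Of 30 further endothelial genes 18 were below 0, and the median was -0.08. *Slc38a5* (-0.44), an amino acid transporter, and *Tfrc*, the transferrin receptor that is also made by neurons, were lowest, *Tfrc* with 56.3 FPKM in KO and 74.96 FPKM in WT. *Cd34*, a sialomucin of endothelium that is also found in other cells, was highest with 48.2 FPKM in KO and 34.2 FPKM in WT, followed by *Car4* (0.18), the carbonic anhydrase of the capillary surface. Of 11 further mural genes 6 were above 0, with a median of 0.02. *Mylk* (-0.41), the myosin light chain kinase, and *Mcam* (-0.24), an adhesion molecule, were lowest there, and *Tpm2* (0.22), a tropomyosin, and *P2ry14* (0.18), a nucleotide-sugar receptor, were highest.

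Markers of some other cells of the tissue also differed between the libraries, and their part in the values above was not tested. All 6 oligodendrocyte genes were lower in KO and below the limits of genes of like level, with a summed level of 1004 FPKM in KO and 1470 FPKM in WT, of which *Mbp* had 444 FPKM in KO and 679 FPKM in WT. Of 4 choroid plexus genes, *Ttr* was at 3.71 FPKM in KO and 221 FPKM in WT. *Kl* was at 0.955 FPKM in KO and 3.01 FPKM in WT, and both were past 2-fold. The remaining choroid plexus genes averaged under 1 FPKM and were also lower in KO. The 4 genes summed to 5.22 FPKM in KO and 227 FPKM in WT. Of 7 measured genes of meningeal and perivascular fibroblasts 5 were below 0 (median -0.22), among them *Igf2* with 14.4 FPKM in KO and 18.4 FPKM in WT and *Dcn* with 9.03 FPKM in KO and 12.2 FPKM in WT, and *Dcn* lay below the limits of genes of like level. The 8 fibroblast genes summed to 34.3 FPKM in KO and 42.9 FPKM in WT.

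Of 8 astrocyte genes 4 were above 0 and 4 below (median -0.05), with *Slc1a2* at 418 FPKM in KO and 349 FPKM in WT and *Aldoc* at 212 FPKM in KO and 235 FPKM in WT. One astrocyte gene lay outside the limits of genes of like level, namely *Gfap*, the intermediate filament protein of astrocytes. It was at 25.8 FPKM in KO and 36.3 FPKM in WT (-0.47). *S100b* (-0.33) and *Aqp4* (-0.27) were also lower in KO, whereas *Aldh1l1* (0.27), *Gja1* (0.07) and *Slc1a3* (0.05) were higher. The astrocyte genes other than *Slc1a2* and *Aldoc* were named after their values were seen. No gene of microglia or neurons lay outside the limits. Of 8 microglia genes 4 were above 0 (median -0.03), with *P2ry12* at 30.9 FPKM in KO and 29.0 FPKM in WT. Of 6 neuronal genes 5 were above 0 (median 0.10), the exception being *Snap25* with 1030 FPKM in KO and 1326 FPKM in WT, while *Syt1* was at 561 FPKM in KO and 463 FPKM in WT.

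The genes of red blood cells, which fill vessels that have not been flushed, were at like levels, with *Hbb-b1* at 20.9 FPKM in KO and 22.1 FPKM in WT and *Hba-a1* at 6.13 FPKM in KO and 7.06 FPKM in WT. Their median was -0.08 over 5 genes, and the alpha and beta globin genes each have close copies between which reads could be divided. The 4 genes of perivascular macrophages were all under 1 FPKM and summed to 2.37 FPKM in KO and 1.92 FPKM in WT.

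**Figure D4:**
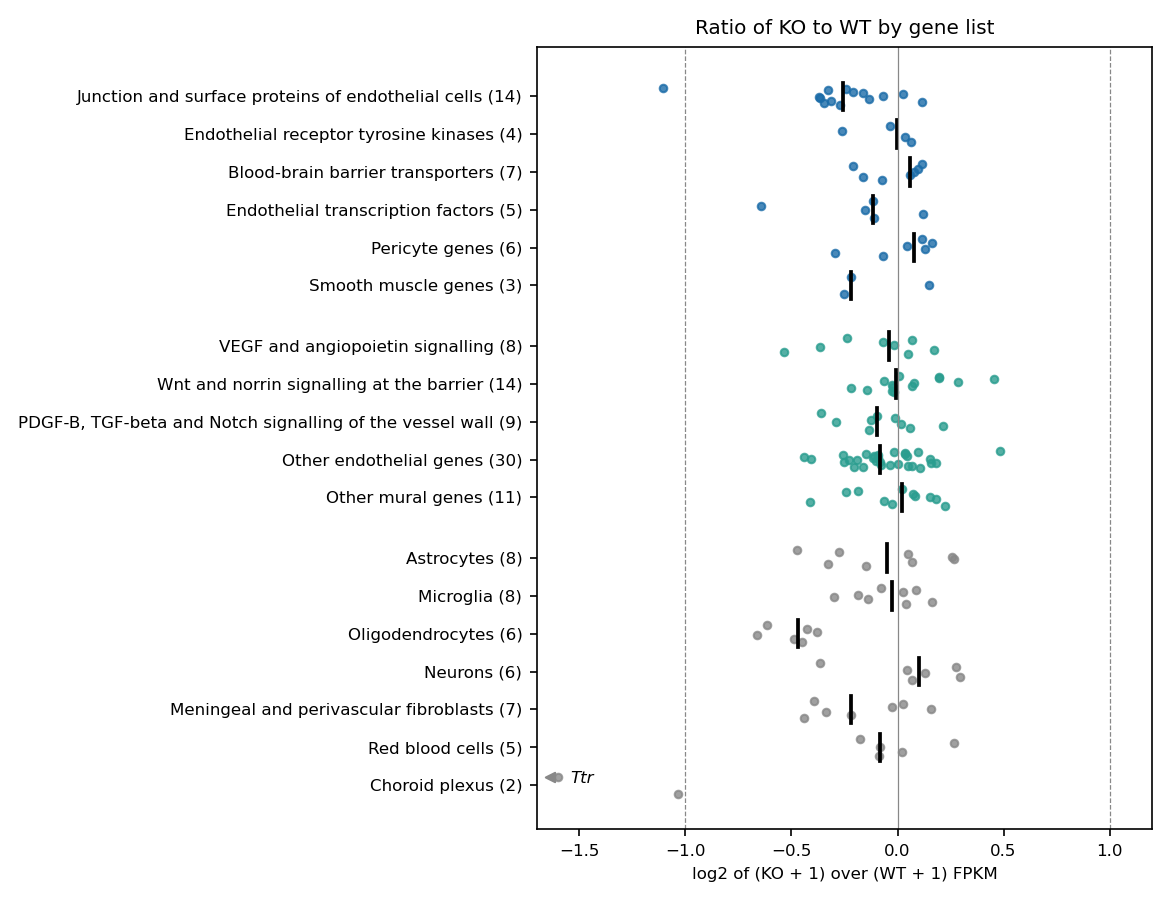
Log2 ratio of KO over WT, with 1 FPKM added to both, for each measured gene of the 6 vascular groups (blue), 5 further vascular lists (green) and lists of other cells (grey), with the number of genes in brackets, the median as a black bar and 2-fold differences as dashed lines. The median lies at -0.26 for junction and surface proteins and at 0.058 for transporters; *Ttr* (-5.56) is drawn at the edge as an arrow, and choroid plexus has no bar because its median is off the axis.

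The isoform table allowed the shares of isoforms to be compared for 29 members that are listed with 2 or more isoforms and reached 1 FPKM in each library. The shift of a gene was taken as 0.5 times the summed absolute differences between isoform shares, so that 0 means equal proportions. It reached 0.2 for 3 of the 29 members (10.3%), against 11.3% of 8677 genes, and its median was 0.051 for the members and 0.066 for all genes. The table gives no transcript names, so isoforms are described by their level.

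*Erg* had the largest shift, 0.29, at a low level. One of its isoforms was at 0.0328 FPKM in KO and 0.389 FPKM in WT, or 2.54% of the gene in KO and 26.5% in WT. *Slco1c1* was the most abundant member with such a shift (0.28). One isoform made up 67.4% of *Slco1c1* in KO and 39.2% in WT (13.8 FPKM in KO, 9.38 FPKM in WT), another 26.2% in KO and 43.0% in WT (5.37 FPKM in KO, 10.3 FPKM in WT), and the third 6.37% in KO and 17.8% in WT. *Egfl7* (0.21) divided its RNA among 14 isoforms above 0, and the largest was at 6.46 FPKM in KO and 6.51 FPKM in WT, so that most of the difference in the gene lay in its other isoforms.

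*Pecam1* (0.19) and *Vwf* (0.19) came next. The *Pecam1* isoform with 35.3% of the gene in WT had 16.2% in KO, at 0.745 FPKM in KO and 1.93 FPKM in WT, while its other main isoforms were at 2.25 and 1.55 FPKM in KO and 1.91 and 1.61 FPKM in WT. For *Vwf*, one isoform was at 0.474 FPKM in KO and 1.02 FPKM in WT. At the other end, *Rgs5*, *Abcc9*, *Pdgfrb* and *Kdr* had shifts of at most 0.00029. Reads shared by several isoforms were divided among them by an estimate, and a share at these levels can rest on few fragments.

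**Figure D5:**
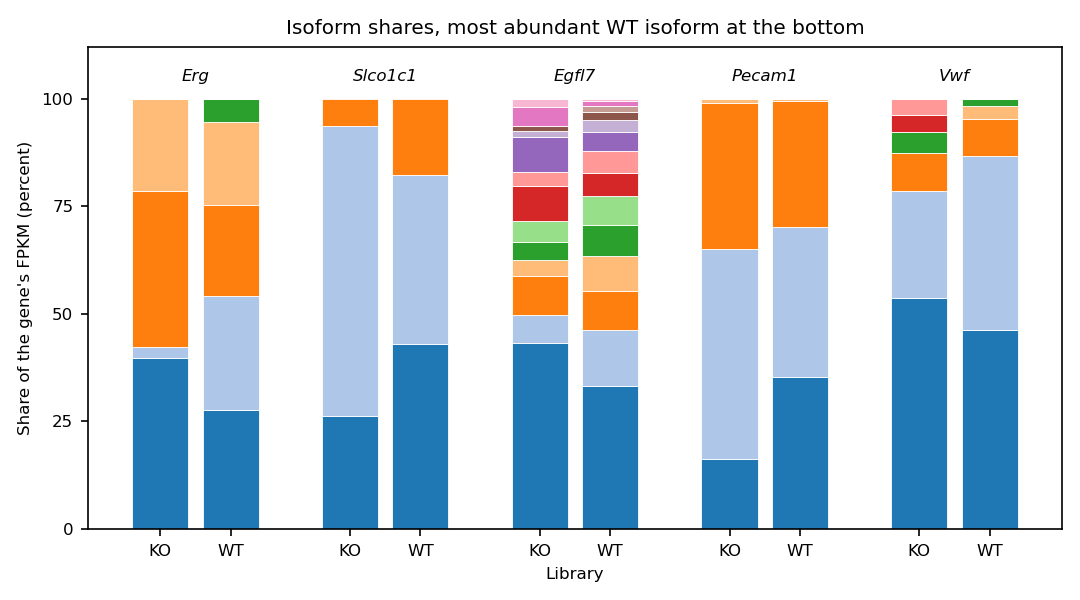
Share of each isoform in the FPKM of its gene, in percent, for the 5 members with the largest shifts, with KO to the left of WT and the same colour for the same isoform within a gene. The second segment of *Slco1c1* takes 67.4% in KO and 39.2% in WT, and the second segment of *Erg* takes 2.54% in KO and 26.5% in WT.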

How the data were processed

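RNA of 1 KO and 1 WT library was compared, each cortex by its label. Libraries were strand-specific (SureSelect). The submitters' processing notes name TopHat, Cufflinks and GRCm38, with versions not given in the sources used here, and whether counting used strand is not stated. FPKM values were used as the authors deposited them, for 37303 genes and their isoforms. The authors' ratios, p-values, q-values and term lists in the deposited tables were not used. Ratios were log2((KO + 1)/(WT + 1)), taken for genes that averaged 1 FPKM or more, and a size of 1 or more counted as 2-fold. No test was possible with 1 library per genotype. FPKM holds no read counts, so the depth is unknown and no counting interval is given. Among 1951 low genes with 1 isoform, KO/WT was most often 0.882, as single fragments would give if KO were 1.13 times as deep.

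The members and lists were chosen with earlier results of these data known. All members may be named. Of the other vascular lists the 2 highest and 2 lowest ratios are named, and of lists of other cells the 2 most abundant genes, in both cases with any gene past 2-fold. Some genes that this rule names are not reported here. Of the marker lists, 2 globin symbols were not in the table. Positions, lengths and GC content were taken from GENCODE M21 (GRCm38), which held all 40 members. Of these, 10 share exon bases with another gene, 2 of them (*Egfl7* and *Ramp2*) on the same strand. The alternatives tried were 0.1 FPKM added, no minimum, a minimum of 5 FPKM, centring on all genes and, chosen after seeing the data, centring on 5 by 5 groups of length and GC content. The steps were tested on simulated data for genes of at least 5 FPKM in WT, with planted changes of a single size, well beyond 2-fold. Lower genes and smaller changes, among them a change of the size seen for *Cldn5*, were not covered. Python 3.11.15, pandas 2.3.3, numpy 2.4.6 and matplotlib 3.10.9 were used.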

Additional observations from a re-analysis of the deposited data

How the results depend on the processing

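The count of members at least 2-fold lower in KO stayed at 1 (*Cldn5*) and that of members at least 2-fold higher at 0 under each of 5 alternatives, and the median over all members lay between -0.17 and -0.12. The number of members outside the central 95% of genes of like level was 1 in place of 2 with 0.1 FPKM added and with a minimum of 5 FPKM. In the first case *Sox18* moved inside the limits, and in the second it was not measured. With a minimum of 5 FPKM the median of the pericyte genes was -0.066, over the 2 genes left. When ratios were centred on genes of like length and GC content, which was chosen after seeing the data, the median of the transporters was -0.057 in place of 0.058, and *Tek* and *Abcg2* changed sign. No gene changed sign with 0.1 FPKM added or with centring on the median of all genes. With a minimum of 5 FPKM in both libraries, 2 members in place of 3 had an isoform shift of at least 0.2. No paired analysis was possible because each genotype has 1 library. The spread between animals and the depth of the libraries are not known, and values near 1 FPKM are the least precise.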
